A study of Mus musculus with 11 samples.

Results

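Scavenger receptors are cell surface receptors through which macrophages (macs) take up modified lipoproteins, haemoglobin, dead cells, microbes and glycoproteins. The 8 receptor genes described here were Cd163, Marco, Msr1, Cd36, Mrc1, Stab1, Scarb1 and Colec12. They were chosen by name as members of the family, with earlier results of these data known, as 8 of the 27998 genes in each table, and all 8 had a row in all 11 libraries. They were read in single-cell RNA sequencing of macs sorted from 5 mouse tissues, with and without deletion of the transcription factor ZEB2, to ask how their levels differed by tissue and genotype.

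Macs of each tissue carry their own set of these receptors. CD163, encoded by Cd163, binds haemoglobin-haptoglobin complexes and is a classical marker of resident tissue macs. Marco, Msr1 and Colec12 belong to the class A receptors, trimers with a collagen-like stalk that bind modified low-density lipoprotein and bacterial surfaces. Cd36 and Scarb1 encode class B receptors, which handle fatty acids, oxidised lipoprotein and high-density lipoprotein cholesterol. Mrc1 encodes the mannose receptor CD206, a C-type lectin that clears glycoproteins, and Stab1 encodes stabilin-1, an endocytic receptor of alternatively activated macs and sinusoidal endothelium. ZEB2 is a zinc finger factor that binds E-box sequences with the core CACCT and is best known as a repressor.

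WT macs came from Zeb2fl/fl mice, whose Zeb2 alleles are flanked by loxP sites and which carry no CRE, and Zeb2KO macs came from Zeb2fl/fl mice that also carry a CRE transgene. Each genotype gave 1 library of microglia (brain), colonic macs (CMs), Kupffer cells (KCs, liver), alveolar macs (AMs, lung) and splenic macs (SMs), and CRE-negative Nr1h3fl/fl mice gave 1 further WT library of KCs. Every Zeb2KO library is labelled Fcgr1-cre, but the study gives Clec4f-cre as the driver for KCs and Itgax-cre as that for AMs, so the driver is left out of the group names. By its methods the mice were young adults of both sexes on a C57Bl/6 background with littermate controls. The study further describes Fcgr1-cre as active in B cells, T cells and dendritic cells too, and Zeb2KO mice as still holding, outside the brain, macs that keep 1 intact Zeb2 copy. The number of mice behind a library is not given in the sources used here.

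Of the 8 genes, 5 had a promoter window in the RefSeq table used (GRCm38.p6, 250 bases before to 50 bases after the start used there). Of these 5, Cd163, Marco and Stab1 are shown because they gave the largest differences between genotypes in opposite directions or in different tissues. The E-box core CACCT, searched on both strands (reverse complement AGGTG), is in capitals.
Cd163 (chr6:124304401-124304700, plus strand): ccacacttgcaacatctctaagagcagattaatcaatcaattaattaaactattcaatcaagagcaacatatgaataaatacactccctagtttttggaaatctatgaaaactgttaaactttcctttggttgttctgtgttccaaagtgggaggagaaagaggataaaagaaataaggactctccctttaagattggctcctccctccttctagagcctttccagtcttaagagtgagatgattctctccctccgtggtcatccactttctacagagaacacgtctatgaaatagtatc
Marco (chr1:120504975-120505274, minus strand): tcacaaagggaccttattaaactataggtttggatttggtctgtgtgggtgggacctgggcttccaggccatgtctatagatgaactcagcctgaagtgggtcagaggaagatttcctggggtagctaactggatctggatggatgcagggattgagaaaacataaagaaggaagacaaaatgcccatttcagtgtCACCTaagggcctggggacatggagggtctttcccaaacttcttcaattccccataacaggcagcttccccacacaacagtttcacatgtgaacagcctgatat
Stab1 (chr14:31168592-31168891, minus strand): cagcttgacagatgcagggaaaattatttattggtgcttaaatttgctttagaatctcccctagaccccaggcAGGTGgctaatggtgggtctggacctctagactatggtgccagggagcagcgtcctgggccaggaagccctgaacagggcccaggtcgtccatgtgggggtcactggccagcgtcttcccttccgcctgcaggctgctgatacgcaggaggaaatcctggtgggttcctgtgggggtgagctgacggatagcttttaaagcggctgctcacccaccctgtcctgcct

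The core CACCT was present once in the windows of Marco, Stab1 and Cd36, and these letters were not in the windows of Cd163 and Mrc1. Among all 32851 promoter windows of the same length, 51.9% held CACCT beside 3 of the 5 windows here. The longer CACCTG, which overlaps the core, was in 1 of the 5 windows, that of Stab1, and in 20.2% of all windows. These matches are letters in a sequence, and no binding was measured here. In the GENCODE M21 annotation of the same genome the genes span chr6:124304656-124330527 (Cd163), chr1:120474538-120505024 (Marco), chr14:31139013-31168641 (Stab1), chr2:14229392-14332057 (Mrc1), chr8:39581685-39642673 (Msr1), chr5:17781690-17888801 (Cd36) and chr5:125277087-125341094 (Scarb1). The Cd36 window (chr5:17835847-17836146, minus strand) thus lies inside the span of the gene and not at its upstream end.

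The libraries held 3097 to 7703 cell barcodes. After removal of low-quality barcodes and of clusters of other cell types, 2830 to 6974 cells and 8396219 to 43003880 UMIs (unique molecular identifiers, each standing for 1 captured mRNA molecule) per library remained, with a median of 2233 (WT SMs) to 9234 (WT CMs) UMIs per cell. All 8 pan-mac markers were detected in every library, and pairs of libraries shared 14 to 76 cell barcodes, at most 1.45% of the smaller library. Zeb2 itself gave 312 to 723 CPM (UMIs of a gene per 1000000 UMIs of its library) in the WT and 476 to 1747 CPM in the Zeb2KO libraries and was higher in the Zeb2KO library of each tissue. The recombined allele keeps the 3′ end that is counted, so Zeb2 UMIs do not check the deletion. With 1 library per tissue and genotype, no test within a tissue was possible and intervals cover counting error only. A gene met the rule for a difference at a log2 ratio of CPM + 1 of at least 1 in size and at least 20 CPM in the higher library, and the ratio of the Nr1h3fl/fl over the Zeb2fl/fl WT KCs showed how large differences are without Zeb2 deletion.

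**Figure D1:**
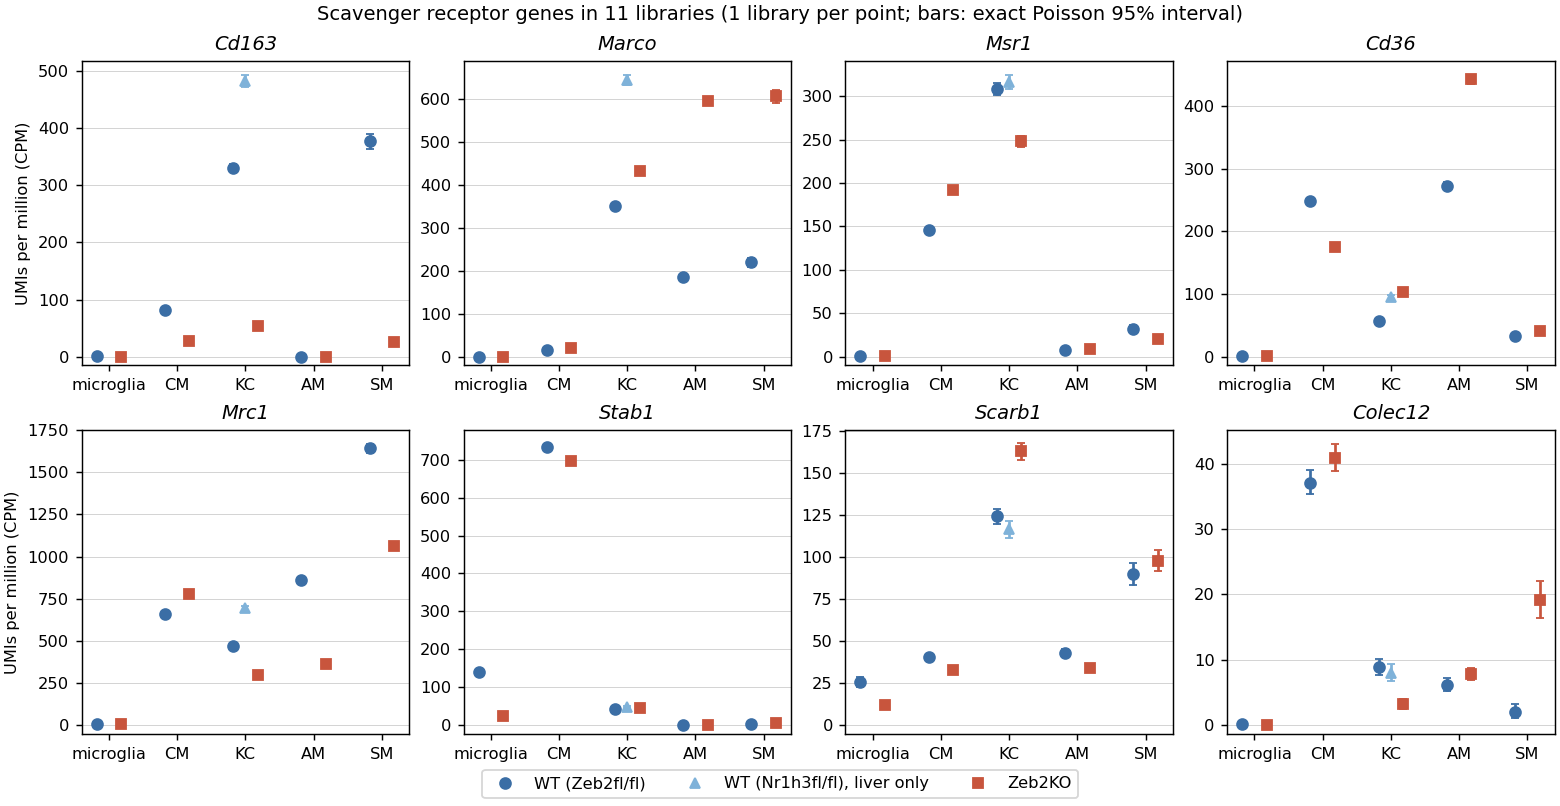
Level of each receptor gene (y axis, CPM, linear, own scale per gene) in microglia, CMs, KCs, AMs and SMs (x axis); points are single libraries (dark blue WT Zeb2fl/fl, light blue WT Nr1h3fl/fl, red Zeb2KO) and bars exact Poisson 95% intervals. Cd163 lies lower in Zeb2KO CMs, KCs and SMs, Marco lies higher in Zeb2KO AMs and SMs, and Stab1 lies lower in Zeb2KO microglia.

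In WT macs the receptors were distributed by tissue. Cd163 was highest in KCs and SMs, intermediate in CMs and near 0 in microglia and AMs. Marco was found in KCs, SMs and AMs, at a low level in CMs, and had no UMI in microglia. Mrc1 was present in all macs outside the brain. Stab1 was highest in CMs and was the receptor gene with clear signal in microglia besides Scarb1, which was detected in all 5 tissues. Msr1 was highest in KCs and CMs, Cd36 in AMs and CMs, and Colec12 was low outside CMs.

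Cd163 was lower in Zeb2KO than in WT macs of the 3 tissues in which WT macs expressed it. In SMs, Cd163 stood at 377 CPM in WT (95% interval 364 to 391) and at 25.2 CPM in Zeb2KO (22.1 to 28.5), 15.01-fold lower. In KCs it stood at 330.3 CPM in Zeb2fl/fl WT, 483 CPM in Nr1h3fl/fl WT and 52.9 CPM in Zeb2KO, 6.25-fold below the Zeb2fl/fl and 9.13-fold below the Nr1h3fl/fl library. In CMs, which held less of it, the level was 82.0 CPM in WT and 28.0 CPM in Zeb2KO, 2.93-fold lower. The counting intervals did not overlap between genotypes in any of the 3 tissues, and in liver both WT libraries lay above the Zeb2KO library. The study lists Cd163, Marco, Colec12 and Timd4 among genes that differ between monocyte-derived and embryonic KCs. It set such genes aside as related to origin before it compared loss of Zeb2 with loss of Nr1h3. The part of KC origin in the values here was not tested. Markers of cell identity moved with genotype as well. The 5 KC markers, all above 20 CPM in each liver library, summed to 15684 CPM in Zeb2fl/fl WT, 12408 CPM in Nr1h3fl/fl WT and 6945 CPM in Zeb2KO KCs, the dividing cell markers to 57.2, 86.7 and 203 CPM, the B cell markers to 36.2, 38.6 and 147 CPM, and the erythroid markers to 81.3, 26.7 and 2.91 CPM. The B cell list includes Ms4a1, which the study reports as a marker of KCs that deleted Zeb2. Of its 6 genes, 2 reached 20 CPM in Zeb2KO KCs and 1 in each WT library. The 5 monocyte markers summed to 598, 625 and 488 CPM. Most of this was Plac8, at 583, 617 and 421 CPM, whereas Ccr2 went the other way, at 8.71, 4.78 and 62.0 CPM. The 6 CM markers summed to 40447 CPM in WT and 28505 CPM in Zeb2KO CMs, and the 5 SM markers to 25881 and 23244 CPM in SMs, where the CM markers summed to 3226 and 7425 CPM and the brain border mac markers to 103 and 203 CPM. Their part in the Cd163 result was not tested.

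The log2 ratios of Cd163 were -3.86 in SMs, -2.62 in KCs and -1.52 in CMs. Between the WT KC libraries the log2 ratio was 0.55 (Nr1h3fl/fl over Zeb2fl/fl), smaller than each of these. In microglia Cd163 had 6 UMIs in the WT library and 0 in the Zeb2KO library, which allows up to 0.177 CPM, and 5 of the 6 WT UMIs lay in the 83 WT cells of 1 cluster led by Ifitm1, Pf4 and Lgals3. Its top 10 genes held both Pf4 and Ms4a7, which mark brain border macs, and Mcpt8, Gata2 and Hdc, which are basophil genes, so the cluster was left unnamed. The 4 mast cell and basophil markers fixed for the check, Mcpt8 among them, had 0 UMIs in the WT library and 4.67 CPM in all in the Zeb2KO library. The WT cells of this cluster thus held no Mcpt8. Over the whole cluster the brain border mac markers were higher than in the other clusters by a mean log2 ratio of 4.94. In AMs Cd163 had 0 UMIs in WT and 1 in Zeb2KO, so it could not be compared in brain and lung.

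Fewer cells held Cd163, and those that did held fewer UMIs of it. The share of cells with a Cd163 UMI was 44.7% in WT and 6.02% in Zeb2KO SMs. Among KCs it was 66.5% in Zeb2fl/fl WT, 71.1% in Nr1h3fl/fl WT and 18.8% in Zeb2KO, and among CMs it was 32.1% in WT and 12.05% in Zeb2KO. When each cell was thinned to 1500 UMIs the shares were 36.6% and 3.50% in SMs, 36.4%, 45.6% and 7.48% in KCs, and 11.4% and 3.81% in CMs, in the same order. This left out 844 WT and 544 Zeb2KO SMs with fewer UMIs, and no KCs or CMs. The mean number of Cd163 UMIs in a positive cell was 2.16 in WT and 1.36 in Zeb2KO SMs, for KCs 2.97 in Zeb2fl/fl WT, 3.56 in Nr1h3fl/fl WT and 1.84 in Zeb2KO, and for CMs, with the smallest difference, 2.53 in WT and 2.19 in Zeb2KO.

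Cd163 UMIs were also found in clusters of lymphocytes, which should lack the gene. They were present in 32.9% of 152 cells in the WT liver library (median 3576 UMIs per cell, against 5331 in KCs) and in 12.1% of 141 cells in the Zeb2KO liver library (3730 against 5868). In spleen the lymphocyte shares were 9.69% of 712 WT cells (median 2110 UMIs, against 2233 in SMs) and 1.69% of 415 Zeb2KO cells (2979 against 2745). Over both libraries these were 998 cells of a B cell cluster and 129 of a mixed cluster. The latter was led by neutrophil genes (S100a9, S100a8, Camp and Ngp among them) as well as T cell genes (Cd3g and Cd3e among them). Both clusters together are called splenic lymphocytes here. The share in macs exceeded that in lymphocytes of the same library in spleen, liver and colon, where the lymphocytes numbered 37 in WT and 38 in Zeb2KO. The excess was smallest in Zeb2KO KCs, with 52.9 CPM against 47.8 CPM in lymphocytes (interval 32.9 to 67.2). The liver B cell cluster still held mac RNA. Its mean log2 ratio over the other clusters was -0.81 for mac and -0.69 for KC markers. In the spleen B cell cluster the ratio for mac markers was -3.09. Liver lymphocytes were thus not a clean background, and whether Zeb2KO KCs as a whole exceeded background was not settled. The Cd163 level was not even across Zeb2KO KCs. Zeb2KO cells of the 4 clusters led by Dapk1, by haemoglobin genes and Clec4f, by Nme2, and by Mmp12 and Cx3cr1 held 198, 151, 106 and 98.4 CPM, above the lymphocyte interval. The cluster led by Mmp12 and Cx3cr1, with 943 Zeb2KO KCs, also had Ccr2 among its leading genes. The study defines KCs with Cx3cr1 and Ccr2 but without Siglecf and Timd4 as putative monocyte-derived KCs that keep a Zeb2 copy.

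To see whether the lower Cd163 level followed from the mix of cells, clusters were made without the 8 receptor genes and each library was compared within clusters that held at least 20 cells of both genotypes. Cd163 was lower in Zeb2KO cells in 12 of 12 shared CM clusters, 8 of 8 KC clusters and 9 of 9 SM clusters. The shared clusters held all 3860 Zeb2KO CMs but 1829 of 3877 Zeb2KO KCs and 2342 of 3042 Zeb2KO SMs. For the AMs below they held 2280 of 6252. In liver the cluster led by Siglecf, Il1r2 and Ddit4 was left out. The study takes SiglecF-positive KCs as those that deleted Zeb2, and SiglecF-negative KCs of these mice as keeping 1 copy. The liver comparison thus leaves out the main cluster of deleted KCs. Among CMs with high Cd74, the study takes those with higher Zeb2, Ms4a1 and Siglecf as deleted. It takes others of the CRE-positive mice as presumably keeping 1 copy. The shared CM cluster led by Hp, Ms4a1 and Mmp8 held 753 Zeb2KO cells. By that reading the 3107 Zeb2KO CMs of the other clusters may largely keep 1 copy. Not all of the shared clusters were macs by their leading genes. In spleen 1 was led by B cell genes, 1 by dendritic cell genes and 1 by genes of dividing cells with the dendritic cell gene Xcr1. In liver 1 was led by Cd209a, Ubd and Apol7c with the dendritic cell chemokines Ccl22 and Ccl17, and 1 by Alox15, Prg4 and Slpi, in which the KC markers were lower than in the other clusters by a mean log2 ratio of -1.90. Without these 2 liver clusters Cd163 was lower in 6 of 6, by -3.08 to -1.14, with the median unchanged at -1.35 and a ratio over all KCs of -2.66. Among all genes considered, 1.47% in CMs, 1.95% in KCs and 1.57% in SMs were lower in every shared cluster. The median log2 ratio of Cd163 over the shared clusters was -1.72 in CMs (range -2.58 to -0.42), -1.35 in KCs (-3.08 to -0.05, the latter in the Alox15-led cluster) and -3.24 in SMs (-6.30 to -1.62), while the median over all genes was 0.03, 0.03 and -0.02. In liver the median within clusters was thus smaller in size than the ratio over all KCs. The clusters of a library share its RNA preparation and its free RNA and are not replicates.

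Colonic Cd163 was spread over several CM clusters. WT cells of the cluster led by Retnla, Vsig4 and Lyve1 held 395 CPM of Cd163 and Zeb2KO cells 65.3 CPM. WT cells of a cluster whose leading genes included Cd209f, Folr2 and Timd4 held 159 CPM and Zeb2KO cells 39.9 CPM, and this cluster made up 20.5% of WT and 1.32% of Zeb2KO CMs. The cluster led by Egr2, Ccl2 and Egr1 held 165 CPM in WT and 55.4 CPM in Zeb2KO cells, and that led by Ccl8 and Cd55 134 and 38.1 CPM. A cluster led by Hp, Ms4a1 and Mmp8, which made up 1.01% of WT and 19.5% of Zeb2KO CMs, held 8.61 CPM of Cd163 in Zeb2KO cells. In KCs the cluster led by Siglecf, Il1r2 and Ddit4, found in the Zeb2KO library alone (49.8% of its KCs), held 22.2 CPM of Cd163, the second lowest level among the Zeb2KO KC clusters. The remaining Zeb2KO KCs, outside clusters in which the Zeb2KO share was at least 9 times the WT share, stood at 68.4 CPM.

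**Figure D2:**
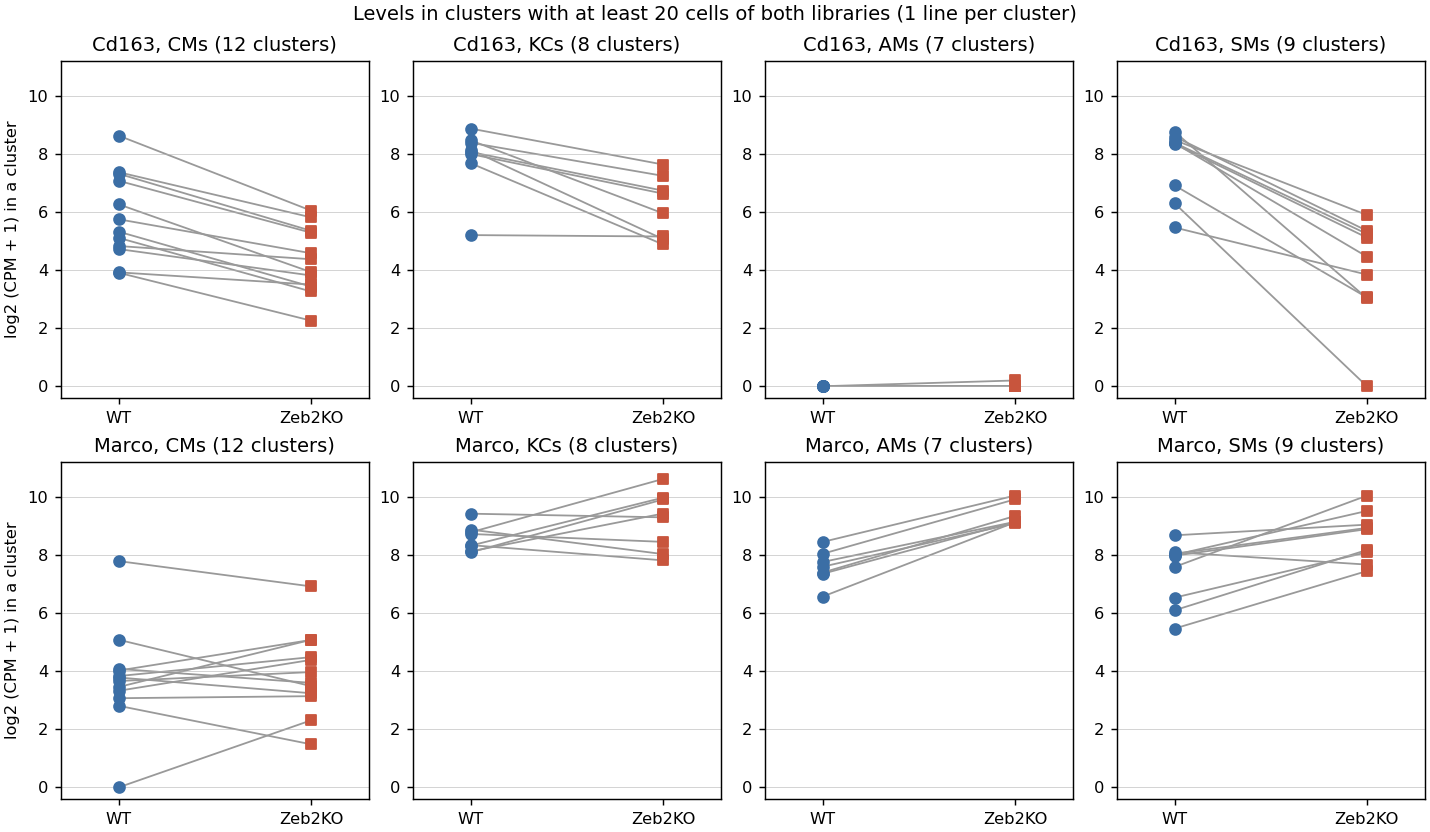
Cd163 (upper panels) and Marco (lower panels) in clusters with at least 20 cells of both the WT and the Zeb2KO library; the y axis is log2 (CPM + 1) and each line joins the WT (blue) and Zeb2KO (red) value of 1 cluster. Cd163 lies lower in Zeb2KO in each of the 12 CM, 8 KC and 9 SM clusters, and Marco lies higher in each of the 7 AM clusters and in 8 of 9 SM clusters.

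Marco was higher in Zeb2KO AMs, where Cd163 was near 0, and in Zeb2KO SMs, where Cd163 was lower. In AMs it stood at 186 CPM in WT (181 to 191) and 597 CPM in Zeb2KO (589 to 605), 3.21-fold higher, and in SMs at 219.9 CPM in WT (209.9 to 230.1) and 607 CPM in Zeb2KO (592 to 623), 2.76-fold higher. The log2 ratios were 1.68 and 1.46. In AMs the median log2 ratio of all genes was -0.31 on this scale and -0.03 with TMM factors, which correct for a few abundant genes that take up reads, and with TMM factors Marco gave 1.96. The share of cells with a Marco UMI was 31.5% in WT and 68.8% in Zeb2KO AMs, 18.0% and 43.7% at 1500 UMIs per cell, and in SMs 18.8% and 55.6%, 14.4% and 42.8% at that depth. In the pool called splenic lymphocytes above, with its mixed cluster, the share was 6.46% in WT and 19.0% in Zeb2KO at 31.8 and 61.6 CPM, below the SMs of the same library. In lung the lymphocytes numbered 14 in WT and 18 in Zeb2KO, of which 0% and 33.3% held a Marco UMI, with median depths of 2690 and 4611 UMIs, so the background in AMs is known only roughly.

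Markers of other cell types moved with genotype in AMs as well. The summed level of 5 neutrophil markers was 37.6 CPM in WT and 23829 CPM in Zeb2KO AMs, where S100a8 (14194 CPM) and S100a9 (9361 CPM) made up most of it, Csf3r and Cxcr2 also exceeded 20 CPM and Retnlg stood at 0.134 CPM. Of 6 epithelial markers, with a sum of 91.2 CPM in WT and 727 CPM in Zeb2KO, Epcam, Krt8 and Krt18 were higher in Zeb2KO, whereas Sftpc of alveolar epithelium stood at 22.8 CPM in WT and 24.4 CPM in Zeb2KO. The 5 monocyte markers summed to 5771 and 20710 CPM, of which Chil3, an AM gene as well, gave 5761 and 20630 CPM, and the 5 AM markers, which include it, summed to 9280 and 22438 CPM. The cluster led by Ceacam10, Krt8 and Cd177, with Krt18 and S100a9 among its leading genes, made up 52.3% of the filtered Zeb2KO lung cells and 0% of the WT ones. The study reports that EpCam-positive AMs were those that had deleted Zeb2. These markers are thus not read here as other cells in the sort. Their part in the AM values of Marco, Mrc1 and Cd36 was not tested.

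In KCs Marco stood at 350.5 CPM in Zeb2fl/fl WT, 644 CPM in Nr1h3fl/fl WT and 432 CPM in Zeb2KO, so the Zeb2KO library lay between the WT libraries. The log2 ratio of 0.30 over Zeb2fl/fl WT turned to -0.58 over Nr1h3fl/fl WT, and the WT libraries differed by 0.88. The KC clusters did not share 1 level. In the Zeb2KO library Marco stood at 182 CPM in the Siglecf-led cluster and at 1574 CPM in a cluster led by Nme2, Cd209g and Apoc1, in which WT cells held 439.8 CPM (Zeb2fl/fl) and 906 CPM (Nr1h3fl/fl). It was higher in Zeb2KO than in Zeb2fl/fl WT cells in 4 of 8 shared KC clusters, each by a log2 ratio of at least 1, and lower in the other 4, with a median of 0.59. The clusters in which it was higher, by 1.303 to 1.84, were those led by Dapk1, by haemoglobin genes and Clec4f, by Nme2, and by Mmp12 and Cx3cr1. Those in which it was lower were 1 of dividing cells (-0.27) and 1 of cells in DNA replication (-0.13), by their leading genes, and the Cd209a-led (-0.52) and Alox15-led (-0.84) clusters. Without the last 2 it was higher in 4 of 6 with a median of 1.477.

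Among shared clusters elsewhere, Marco was higher in Zeb2KO in 7 of 7 AM clusters (median log2 ratio 1.78, range 1.38 to 2.56), where 2.46% of all genes were higher in every cluster, and in 8 of 9 SM clusters (median 1.51, or 0.91 over 7 without the 2 led by B cell or dendritic cell genes). In Zeb2KO SMs it stood at 990.5 CPM in a cluster led by Il1f9, Skint3 and Dpep2, which was made of Zeb2KO cells alone and 22.3% of Zeb2KO SMs, and at 1057 CPM in the 38 Zeb2KO cells of a cluster led by the interferon-induced Cxcl9 and Cxcl10. In CMs Marco stood at 14.7 CPM in WT and 19.3 CPM in Zeb2KO, under the 20 CPM limit, and its WT level was highest in a cluster led by Cox6a2, Marco and Cxcl13 at 221 CPM (41 cells). In microglia 0 UMIs were found in both libraries, which allows up to 0.243 CPM in WT and 0.177 CPM in Zeb2KO.

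Mrc1 was lower in Zeb2KO AMs and showed smaller differences elsewhere. Its level was 858 CPM in WT and 364 CPM in Zeb2KO AMs, with a log2 ratio of -1.24 that became -0.96 with TMM factors and so missed the limit of 1. In SMs it stood at 1641 CPM in WT and 1059.7 CPM in Zeb2KO (-0.63), and in KCs at 469 CPM in Zeb2fl/fl WT, 694 CPM in Nr1h3fl/fl WT and 296 CPM in Zeb2KO (-0.66, or -1.23 over Nr1h3fl/fl WT, with 0.56 between the WT libraries). In CMs it was 661 CPM in WT and 778 CPM in Zeb2KO (0.24). Mrc1 was lower in Zeb2KO cells in 9 of 9 shared SM clusters and 6 of 7 AM clusters, with median log2 ratios of -0.38 (-0.14 over 7 SM clusters without the 2 led by B cell or dendritic cell genes) and -0.34, and higher in 10 of 12 CM clusters. Microglia held 6.32 CPM in WT and 8.33 CPM in Zeb2KO, and the microRNA gene Mir511 lies within Mrc1.

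In microglia the receptor genes above 20 CPM were Stab1 and Scarb1, and both were lower in Zeb2KO. Stab1 stood at 139.6 CPM in WT (133 to 146) and 24.9 CPM in Zeb2KO (22.6 to 27.4), 5.61-fold lower, with a log2 ratio of -2.44. It was detected in 42.3% of WT and 11.3% of Zeb2KO microglia, and in 18.9% and 3.84% at 1500 UMIs per cell. The unnamed cluster led by Ifitm1, Pf4 and Lgals3, 2.93% of WT cells, gave 4.30% of the WT Stab1 UMIs, and the 2 large WT clusters stood at 176 and 108 CPM, against 14.7 to 32.0 CPM in the 6 Zeb2KO clusters of at least 20 cells. No cluster held 20 cells of both microglia libraries, so Stab1 could not be compared within shared clusters. Several marker lists differed between the microglia libraries too. The 5 microglia markers, all above 20 CPM in both, summed to 22277 CPM in WT and 14667 CPM in Zeb2KO, the 6 CM markers to 3149 and 8817 CPM, the 5 neutrophil markers to 197 and 459 CPM, the 6 erythroid markers to 189.5 and 8.57 CPM, and the 4 platelet markers to 94.7 and 14.4 CPM. The neutrophil sum was mostly Csf3r (196 and 362 CPM) and Cxcr2 (0.892 and 96.2 CPM), with S100a8 at 0.162 and 1.42 CPM. Of the CM markers 3 reached 20 CPM in each library, and Ms4a7 stood at 0.486 and 2.36 CPM. The part of these differences in the Stab1 and Scarb1 results was not tested.

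Scarb1 stood at 25.7 CPM in WT (22.9 to 28.7) and 11.9 CPM in Zeb2KO microglia (10.3 to 13.6), a log2 ratio of -1.05, which became -0.98 with TMM factors. In the other tissues both genes differed less. Stab1 was 734 and 697 CPM in WT and Zeb2KO CMs (-0.07), and 41.9, 48.1 and 46.2 CPM in Zeb2fl/fl WT, Nr1h3fl/fl WT and Zeb2KO KCs, and stayed under 20 CPM in AMs and SMs. Scarb1 was 124 CPM in Zeb2fl/fl WT, 117 CPM in Nr1h3fl/fl WT and 163 CPM in Zeb2KO KCs (0.39, with a median of 0.11 over 8 shared clusters), 40.6 and 32.9 CPM in CMs, 42.9 and 33.9 CPM in AMs, and 90.0 and 97.97 CPM in SMs. Stab1 overlaps Nt5dc2 on the opposite strand, and Scarb1 overlaps Gm42633.

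No ratio of Msr1, Cd36 or Colec12 met the rule in any tissue. Msr1 stood at 146 CPM in WT and 192 CPM in Zeb2KO CMs (0.39), 308, 316 and 248 CPM in Zeb2fl/fl WT, Nr1h3fl/fl WT and Zeb2KO KCs (-0.31), and 31.8 and 20.7 CPM in SMs (-0.60), with 7.58 and 8.83 CPM in AMs. Over the shared clusters Msr1 was higher in Zeb2KO in 6 of 8 KC clusters (median 0.23) and 11 of 12 CM clusters (median 0.35). In SMs it was higher in 5 of 9 clusters (median 0.09, range -3.27 to 1.33, the lowest from 1 WT and 0 Zeb2KO UMIs). The shared KC clusters leave out the Siglecf-led cluster of the Zeb2KO library, which held 173 CPM of Msr1, below both WT libraries. Cd36 was higher in Zeb2KO AMs (273 and 442 CPM, 0.70, or 0.98 with TMM factors) and lower in Zeb2KO CMs (248 and 175 CPM, -0.50). In KCs Cd36 was 57.2 CPM in Zeb2fl/fl WT, 94.4 CPM in Nr1h3fl/fl WT and 102 CPM in Zeb2KO, a ratio of 0.83 beside 0.71 between the WT libraries. In 8 of 8 shared KC clusters Cd36 was higher in Zeb2KO than in Zeb2fl/fl WT cells (median 1.01, or 1.44 over 6 without the Cd209a-led and Alox15-led clusters), where 2.92% of all genes were higher in every cluster. In SMs the share of cells with a Cd36 UMI, 7.05% in WT and 8.97% in Zeb2KO, lay below that in splenic lymphocytes, 7.87% and 13.3%. So did the level, at 32.6 and 40.8 CPM in SMs against 42.3 and 48.4 CPM. These lymphocytes gave no single background. Over both libraries the B cell cluster stood at 49.95 CPM and the cluster led by neutrophil and T cell genes at 5.71 CPM. Whether SMs express Cd36 was thus not settled.

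Colec12 had 17 UMIs in WT SMs, or 2.02 CPM (1.18 to 3.24), and 189 UMIs in Zeb2KO SMs, or 19.1 CPM (16.5 to 22.0), a log2 ratio of 2.73 just under the 20 CPM limit. It was detected in 0.519% of WT and 5.10% of Zeb2KO SMs, and in 0.241% of Zeb2KO splenic lymphocytes, and it was higher in 7 of 9 shared SM clusters. In CMs it stood at 37.1 CPM in WT and 40.9 CPM in Zeb2KO. In KCs it was 8.84, 7.94 and 3.18 CPM in Zeb2fl/fl WT, Nr1h3fl/fl WT and Zeb2KO, and in AMs 6.19 and 7.83 CPM.

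**Figure D3:**
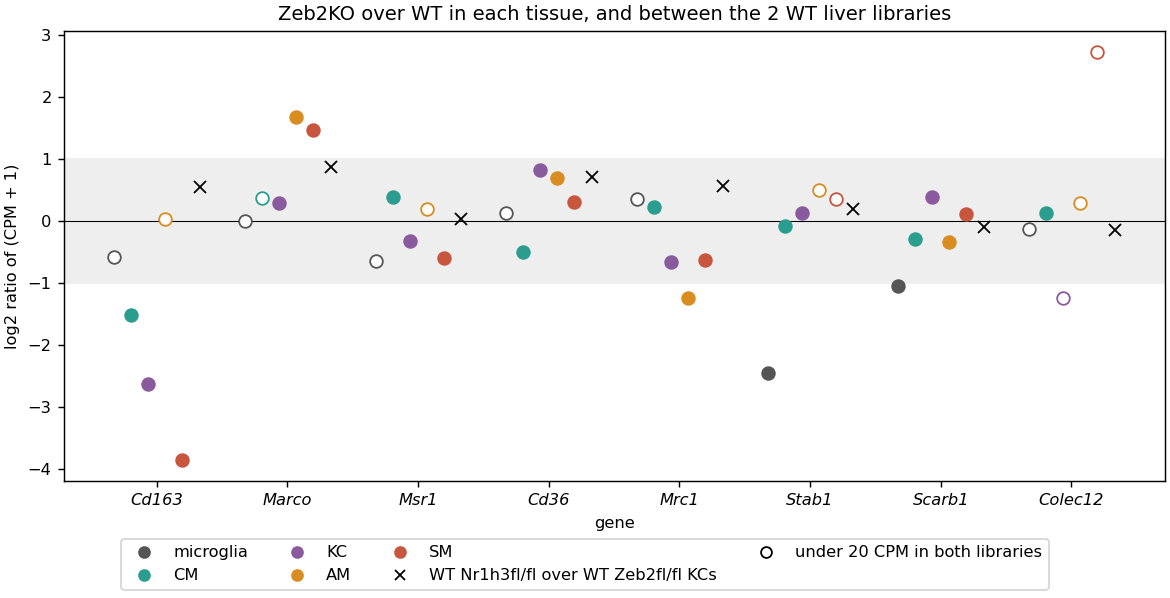
Log2 ratio of CPM + 1 (y axis) for each receptor gene (x axis), Zeb2KO over WT in each tissue (coloured circles, open where both libraries lie under 20 CPM) and WT Nr1h3fl/fl over WT Zeb2fl/fl KCs (crosses); the grey band spans -1 to 1. Filled points outside the band are Cd163 in CMs, KCs and SMs, Marco in AMs and SMs, Mrc1 in AMs, and Stab1 and Scarb1 in microglia.

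Few of the 8 genes met the rule in a given tissue. In microglia 2 genes passed the 20 CPM limit and both were lower, where 4.07% of all genes were lower and 8.34% met the rule in either direction. Among 7 genes considered in CMs, Cd163 was lower, where 0.489% of all genes were lower and 1.56% met the rule in either direction. Among 7 in KCs, Cd163 was lower, beside 1.24% lower and 4.73% in either direction over all genes. Of 4 genes considered in AMs, 1 was higher and 1 lower, beside 4.35% higher, 7.33% lower and 11.7% in either direction over all genes. Of 6 in SMs, 1 was higher and 1 lower, beside 2.31% higher, 0.793% lower and 3.11% in either direction. Between the WT KC libraries 0 of 7 met the rule, against 1.32% of all genes. Over the Nr1h3fl/fl library 2 of 7 (Cd163 and Mrc1) were lower in Zeb2KO KCs, where 4.05% of all genes were lower and 8.28% met the rule in either direction. The receptor genes considered had a median log2 ratio of -1.75 in microglia (all genes -0.09) and -0.24 in SMs (-0.02). It was 0.18 for AMs (-0.31), 0.14 for KCs (0.02) and -0.07 for CMs (0.05). A total of 9 of 7998 genes considered in at least 1 tissue were lower in at least 3 tissues, and Cd163 was 1 of them. The 7998 include genes considered in fewer than 3 tissues, which could not be counted, so the share among eligible genes is higher.

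Across the 5 tissues taken as replicates, no receptor gene showed a shift that passed the test. The edgeR quasi-likelihood test with the tissue as a block called 0 of 13974 genes (0.0%) at an adjusted p under 0.05, 1582 of them had an unadjusted p under 0.05, and DESeq2 called 360 of 12892 genes (2.79%). Cd163 gave a log2 fold change of -2.71 ± 0.48 (SE) with an edgeR adjusted p of 0.184, rank 75 by p, and a DESeq2 adjusted p of 4.94e-06. It was the receptor gene called by DESeq2, and its shift rested on the 3 tissues with Cd163 counts. Marco gave 1.01 ± 0.34 (edgeR adjusted p 0.377, DESeq2 0.0966). The other 6 genes lay between -0.34 (Mrc1) and 0.41 (Colec12), with edgeR adjusted p from 0.560 to 0.902.

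**Figure D4:**
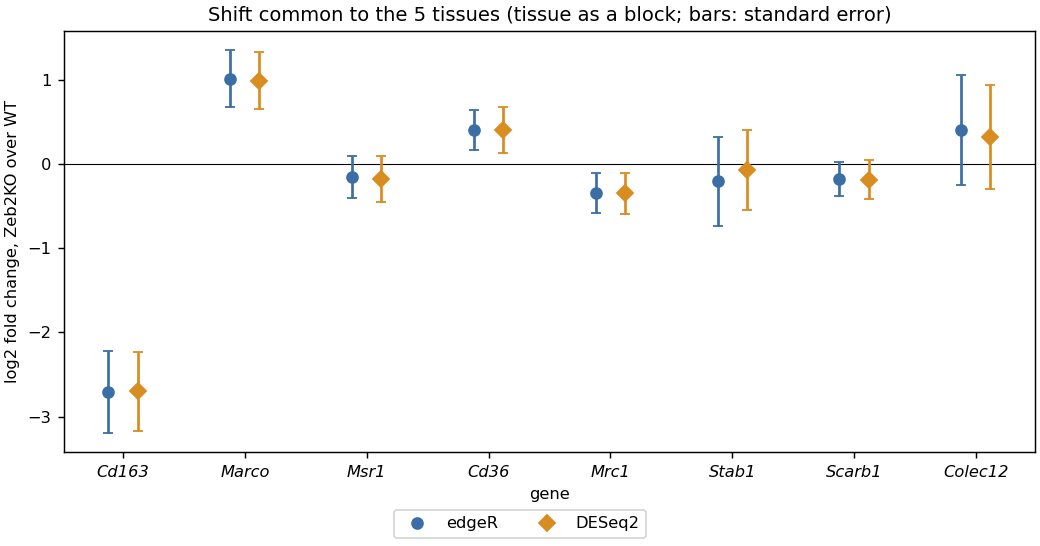
Log2 fold change of each receptor gene (x axis) common to the 5 tissues, Zeb2KO over WT (y axis), from edgeR (circles) and DESeq2 (diamonds) with the tissue as a block; bars are standard errors, n = 5 pairs. Cd163 lies at -2.71 and Marco at 1.01 in edgeR, and the other 6 genes lie between -0.34 and 0.41.

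The cells that set the Zeb2KO libraries apart were compared with the other Zeb2KO cells. Clusters whose share among Zeb2KO cells was 9 or more times that among WT cells accounted for 94.8% of microglia, 91.0% of AMs, 76.8% of KCs, 71.3% of SMs and 19.5% of CMs in the Zeb2KO libraries. In CMs these cells, the cluster led by Hp, Ms4a1 and Mmp8, held less of several receptors than the other Zeb2KO CMs pooled. They held 234 CPM of Mrc1, 183 CPM of Stab1, 45.9 CPM of Cd36 and 7.34 CPM of Colec12, whereas the other Zeb2KO CMs held 910.02 CPM of Mrc1, 821 CPM of Stab1, 206 CPM of Cd36 and 49.0 CPM of Colec12. Msr1 and Scarb1 differed less between these cells, at 134 and 206 CPM of Msr1 and 34.6 and 32.5 CPM of Scarb1. Such levels were not particular to these cells, as Zeb2KO cells of the cluster led by Ear2, Ccr2 and Cd209a held 273 CPM of Mrc1, 178 CPM of Stab1, 52.0 CPM of Cd36 and 5.38 CPM of Colec12. In Zeb2KO KCs such clusters held 360 CPM of Marco, 221 CPM of Msr1 and 180 CPM of Scarb1, and the other 899 KCs 649, 329 and 112 CPM, so Scarb1 was above the Zeb2fl/fl WT library in the former (log2 ratio 0.53) and below it in the latter (-0.15). The former pool unlike clusters. Marco, Msr1 and Scarb1 stood at 182, 173 and 192 CPM in the Siglecf-led cluster. In Zeb2KO cells of the cluster led by Mmp12 and Cx3cr1 they stood at 689, 315 and 163 CPM. Stab1 in microglia (24.8 and 26.1 CPM) and Cd163 in SMs (24.8 and 26.1 CPM) were close in both groups of Zeb2KO cells, and Mrc1 in SMs was 1068 and 1034 CPM. Marco in SMs (645 and 488 CPM) and Cd36 in AMs (451 and 349.7 CPM) were higher in the clusters that set the library apart, with counting intervals that did not overlap. In AMs Mrc1 stood at 364 CPM in such clusters and 357 CPM in the remaining 560 Zeb2KO cells, and Marco at 592 and 646 CPM. Both groups of Zeb2KO AMs differed from the WT library in the same direction. For Mrc1 the remaining cells were not a like mix, as 275 lay in the dividing cluster, where WT cells held 605 CPM. In the largest WT clusters, led by Tnf and by Ear1, WT cells held 956 and 794 CPM of Mrc1. The 32 and 36 Zeb2KO cells there held 886 and 626 CPM. The part of cell mix in the Mrc1 difference was not tested.

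Companion genes were read by the same rule. Of 19 other scavenger receptor genes, 5 to 7 passed the 20 CPM limit in a tissue, and the rule was met by 4 of 6 in AMs, by 1 of 5 in microglia and in SMs, by 1 of 7 in KCs and by 0 of 5 in CMs. Over all genes 11.7% met it in AMs, 8.34% in microglia, 3.11% in SMs, 4.73% in KCs and 1.56% in CMs. Stab2, which encodes stabilin-2, the hyaluronan receptor of sinusoidal endothelium, was lower in Zeb2KO KCs (79.6 and 31.2 CPM) and Zeb2KO SMs (162 and 69.6 CPM). The summed level of 8 endothelial markers, Stab2 among them, was 200.1 CPM in WT and 207 CPM in Zeb2KO KCs, and 344 and 429 CPM in SMs. The fall of Stab2 lies inside these sums, so they do not show how the other endothelial markers moved. The part of endothelial RNA in the Stab2 result was not tested. Cxcl16, a membrane chemokine that also binds oxidised lipoprotein, was 2.41 CPM in WT and 80.1 CPM in Zeb2KO AMs. Cd5, a lymphocyte receptor of the cysteine-rich family that includes Cd163, was 0.649 CPM in WT and 27.5 CPM in Zeb2KO microglia. Cd44, the main hyaluronan receptor of leukocytes, was 2767 and 966 CPM in WT and Zeb2KO AMs.

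Because CD163 delivers haemoglobin to the haem pathway, 10 genes of haem handling were read beside it. In the 3 tissues where Cd163 was lower, CMs, KCs and SMs, 0 of 10 met the rule, where 1.56%, 4.73% and 3.11% of all genes did, so a count of 0 is near the background. Hmox1, which degrades haem, was 1075 CPM in WT and 752 CPM in Zeb2KO KCs and 11314 and 10256 CPM in WT and Zeb2KO SMs, and it met the rule in microglia alone (765 and 378 CPM, a log2 ratio of -1.02, or -0.94 with TMM factors). The haem transporter gene Slc48a1 was lower in Zeb2KO AMs (110.0 and 36.8 CPM), and Fth1, the ferritin heavy chain, and Blvrb, a biliverdin reductase, were higher there, with log2 ratios of 1.23 and 1.06. AMs thus gave 3 of 8 genes considered, beside 11.7% of all genes, and microglia 1 of 9, beside 8.34%.

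Of 12 genes of lipid uptake and efflux, the rule was met by 2 of 12 considered in KCs (4.73% of all genes) and 2 of 12 in SMs (3.11%), by 1 of 9 in CMs (1.56%), by 1 of 7 in microglia (8.34%) and by 3 of 12 in AMs (11.7%). Those in KCs and SMs were higher, those in CMs and microglia lower, and in AMs 2 were higher and 1 lower. Lpl, lipoprotein lipase, was 397 CPM in WT and 1239 CPM in Zeb2KO KCs, 326 and 768 CPM in SMs, and 40.7 and 16.3 CPM in CMs, so its direction differed between tissues. The WT KC libraries differed in Lpl by a log2 ratio of 0.77. Fabp4, a fatty acid carrier, was 397 and 75.8 CPM in WT and Zeb2KO AMs and 64.9 and 173 CPM in SMs, and between the WT KC libraries it differed by -1.56. Apoe, the lipoprotein ligand, was 13.8 CPM in WT and 1553 CPM in Zeb2KO AMs, and Abca1, a cholesterol exporter, was 89.4 and 37.3 CPM in WT and Zeb2KO microglia.

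By level over the 11 libraries, Cd163 was most like a set of genes that were also near 0 in microglia and AMs. By Pearson r of log2 (CPM + 1) among 8022 genes, the 5 nearest were Timd4 (0.95), Adamdec1 (0.95), Psd3 (0.94), Pianp (0.94) and Rasgrp1 (0.94). Timd4, the phosphatidylserine receptor of resident macs, was 561 CPM in Zeb2fl/fl WT, 484 CPM in Nr1h3fl/fl WT and 132 CPM in Zeb2KO KCs, but 68.5 and 58.4 CPM in WT and Zeb2KO SMs, where Cd163 differed 15.01-fold. Pianp was 20.8 CPM in WT and 1.01 CPM in Zeb2KO SMs and 14.3 and 1.84 CPM in CMs. Among the receptor genes Cd163 was nearest to Msr1 (r = 0.84) and Scarb1 (0.76) and stood at 0.47 with Marco. The values near 0 in microglia and AMs carry much of each r, and the libraries of a tissue share cell type.

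For the other members the nearest genes included Scp2, G6pdx and Rxra for Marco (r = 0.97 each), Ctsc, Dynlt1a and 2610524H06Rik for Msr1 (0.98 to 0.99), Lgals3, Anxa5 and Sec61b for Cd36 (0.98 to 0.99), Clec4n and AI662270 for Mrc1 (0.97 to 0.98), Xylt2, 1600002K03Rik and Snrnp35 for Stab1 (0.96 to 0.97), Mlkl, Mta3 and Drap1 for Scarb1 (0.94 to 0.96), and Ms4a7, Psmb4 and Plxnd1 for Colec12 (0.88 to 0.89). Clec4n encodes dectin-2, a C-type lectin like the mannose receptor, and Lgals3 encodes galectin-3. Each r is over 11 libraries and is a description of these libraries.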

How the data were processed

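The authors ran Cell Ranger on 10x Genomics 3′ libraries, mapped to mm10, and deposited unnormalised UMI counts (27998 genes by cell barcodes), checked here to be whole numbers. Barcodes beyond 3 median absolute deviations in UMIs, genes or mitochondrial share were removed (4.66% to 9.22%). Cells of each tissue were clustered in scanpy 1.11.5 (2000 variable genes without the receptor genes), and clusters of other cell types by markers were left out (0% to 20.9% of a library). Scrublet called at most 0.0655% of cells, so doublets were not removed in the main analysis. Counts were summed per library and expressed as CPM, with a pseudocount of 1 CPM for ratios and exact Poisson or Clopper-Pearson 95% intervals, which cover counting error only. The common shift was tested in edgeR 4.0.16 with TMM factors, filterByExpr and tissue as a block, with DESeq2 1.42.0 as an alternative, both at an adjusted p under 0.05 (Benjamini-Hochberg over all genes). The edgeR script was tested on simulated data. A count of 0 allows up to 3 counts. Named genes were the 8 receptor genes, at most 4 genes per companion list by the number of tissues in which the rule was met, and the genes nearest in Pearson r (5 for Cd163, 3 for the others, 1 of which is not reported here). The receptor genes and lists were chosen with earlier results of these data known, and limits of the rule on other cell types were set after clusters had been seen. In spleen, 3 kept clusters were led by genes of B, dendritic or natural killer cells, and in liver 2 were led by genes of dendritic cells or had low KC markers. They were left out in alternatives added afterwards. Clec7a, Flvcr1 and Flvcr2 were not analysed here. Promoter windows are from RefSeq (GRCm38.p6), and overlaps from GENCODE M21. Libraries of 1 tissue and genotype are single, so p-values across tissues measure the spread between tissues.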

Additional observations from a re-analysis of the deposited data

Results flagged for a closer look

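Msr1, Cd36, Mrc1 and Scarb1 differed between genotypes in opposite directions in different tissues, with counting intervals of the WT and Zeb2KO libraries apart in both tissues. The log2 ratio of Msr1 was 0.39 in CMs but -0.60 in SMs, a difference of 0.99, but within shared SM clusters Msr1 was higher in Zeb2KO in 5 of 9 (median 0.09). Cd36 had 0.83 in KCs and -0.50 in CMs, a difference of 1.33, and its ratio between the WT KC libraries was 0.71. Mrc1 had 0.24 in CMs and -1.24 in AMs, a difference of 1.47. Scarb1 had 0.39 in KCs and -1.05 in microglia, a difference of 1.44, but in KCs the ratio was -0.15 in the 899 Zeb2KO cells outside the clusters that set that library apart, and the median over shared KC clusters was 0.11. With 1 library per tissue and genotype these differences were not tested.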

How the results depend on the processing

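Each tissue gave 1 pair of libraries, so the difference between the WT KC libraries is the one value that shows how far libraries differ without Zeb2 deletion. The number of receptor genes that met the rule moved in microglia from 2 to 1 (TMM factors, a CPM floor of 50, or without the 5% highest Scrublet scores), in AMs from 2 to 1 (TMM factors), in KCs from 1 to 2 (Nr1h3fl/fl control, or a CPM floor of 5), and in SMs from 2 to 3 (Colec12, at a CPM floor of 5). Cd163 met the rule in CMs, KCs and SMs in every alternative run, with log2 ratios from -1.56 to -1.40, -3.17 to -2.53 and -3.90 to -3.66, and so did Marco in AMs (1.66 to 1.96) and SMs (1.40 to 1.496). Without the 3 spleen clusters led by genes of other cell types the SM values were -3.87 for Cd163 and 1.40 for Marco, and without the 2 such liver clusters the KC value of Cd163 was -2.66. Of 264 log2 ratios under alternatives, none of those that met the rule changed sign. The common shift of Cd163 passed the threshold in DESeq2 alone (-2.70), and leaving out a pair gave -3.24 to -2.15 with edgeR adjusted p from 0.198 to 0.463. Without the tissue term, that is, with no replicate block for the pairing of libraries by tissue, Cd163 gave -2.83 and Scarb1 turned to 0.088. Leaving out each pair gave -0.51 to 0.35 for Stab1 and -0.31 to 0.018 for Scarb1, whose signs turned without brain, and -0.26 to 1.03 for Colec12, whose sign turned without spleen. The number of genes called was 360 in DESeq2, 3 without the filter, 2 with the Nr1h3fl/fl control, and 0 to 1 when a pair was left out. The cause of these changes was not tested.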
